A study of Xenopus laevis with 51 samples.

Results

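The entries of 10 genes known from retinal ganglion cells and other inner retinal neurons were followed through optic nerve crush (ONC) in Xenopus laevis. The genes were POU4F1, POU4F2, POU4F3, ISL1, ISL2, RBPMS2, SNCG, EBF1, EBF3 and CALB2, and every entry whose gene symbol was one of these was taken, which gave 20 of the 24381 entries of each library. POU4F2 had 1 entry, EBF3 had 3, and each of the other 8 genes had 2. The entries of a gene were numbered from the highest to the lowest mean level in the eye, and they were kept separate because the genome of this frog is duplicated and most genes have an L and an S copy (homeologs). The files did not say which entry is L and which is S.

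The series held 51 libraries in 17 conditions, with 3 libraries in each. The 21 eye libraries came from albino juvenile frogs, 1 to 3 months after metamorphosis, and each pooled 6 whole eyes: ONC eyes at 3 days (d), 11 d and 3 weeks (wk) after a crush of 1 optic nerve in the orbit, the contralateral unoperated eyes of the same frogs, and eyes of surgically naive frogs. The 30 hindbrain libraries each pooled 5 hindbrains after spinal cord injury (SCI, a complete transection) or none: stage 53 tadpoles at 3 d, 1 wk and 3 wk with age-matched unoperated tadpoles at each time, and juvenile frogs at the same times with a single group of unoperated frogs. The titles of the tadpole controls taken as those of 3 d give no time, unlike those of the later tadpole controls. All animals were of the albino strain of 1 supplier, and their sex was not determined. Levels are FPKM (fragments scaled to transcript length and to the mapped fragments of the library), so that they can be compared between genes. Differences are log2 fold changes on the log2(FPKM + 0.5) scale from limma, with their standard error (SE), and an entry was called when its adjusted p (Benjamini-Hochberg, over all entries tested) was at most 0.05. Nothing in the labels said that the 3 pools of a condition were raised or operated separately, so the p-values measure the spread between these pools.

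Retinal ganglion cells are the output neurons of the eye: their axons form the optic nerve, so a crush of that nerve cuts them directly. The other inner retinal neurons, amacrine and bipolar cells, have no axon in the nerve. In the mouse retina, the POU-domain factors POU4F1, POU4F2 and POU4F3 and the LIM-homeodomain factors ISL1 and ISL2 help to specify ganglion cells, and ISL1 also marks some bipolar and amacrine cells. RBPMS2 is an RNA-binding protein that marks ganglion cells, and SNCG (gamma-synuclein) is a small presynaptic protein abundant in them. EBF1 and EBF3 are helix-loop-helix factors of differentiating neurons, and CALB2 (calretinin) is a calcium-binding protein of amacrine and ganglion cells. A whole eye holds far more photoreceptor and lens tissue than ganglion cells, and in such a sample fewer cells of a type and less RNA per cell cannot be told apart.

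Some libraries stood apart. The titles of 2 of the 3 ONC libraries at 3 d (replicates 1 and 3), 1 of the 3 contralateral libraries at 3 d (replicate 3), 2 of the 3 ONC libraries at 11 d (replicates 1 and 3) and all 3 contralateral libraries at 11 d carry a letter B, whose meaning the labels do not give. No naive and no 3 wk eye library carries it. All 3 unoperated frog hindbrain libraries carry another letter, R, which no other library has and which the labels do not explain either. At 3 d the 3 libraries with the letter listed 319 to 492 entries at 0 FPKM and gave 44.1% to 46.0% of their summed FPKM to lens crystallins, against 658 to 1200 entries and 25.0% to 32.3% in the 3 without it. At 11 d the letter did not go with these measures in that way: the 5 libraries with it had 624 to 1093 entries at 0 and 34.3% to 46.0% crystallins, and the 1 without it had 1222 and 42.9%. Pearson's r between replicates, across all entries on the log2 scale, fell as low as 0.945 in contralateral eyes at 3 d and 0.964 in ONC eyes at 3 d, and was at least 0.980 in the other 15 conditions. The FPKM that 1 read adds, estimated from the steps of low entries, ranged over eye libraries from 0.804 to 1.75 times the median library. The 2 highest eye values were those of ONC eyes at 3 d with the letter B, 1.75 (replicate 1) and 1.47 (replicate 3). Contralateral replicate 3 at 3 d had 1.29, and the 3 libraries at 3 d without the letter had 0.927 to 0.990. The eye libraries held 15492 to 26101 summed FPKM of photoreceptor genes against 10.1 to 80.4 in the hindbrain libraries, and 59.8 to 137 of myelin genes against 2798 to 23334.

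At 3 d after the crush, the level of every one of the 20 entries was lower in the ONC eye than in the contralateral eye, and 2 of the 20 passed the test: POU4F3 entry 1 and RBPMS2 entry 1. In the same comparison 0.19% of all 22078 entries tested were called. The median log2 fold change was -0.93 over the 20 entries (12 of them with an unadjusted p under 0.05) and -0.03 over all entries tested (1443 of 22078 with such a p). The ONC values lay wholly below the contralateral values in 11 of the 20, and in 12.3% of all entries the 2 groups did not overlap in either direction.

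POU4F3 entry 1 (scaffold 000050694 of the JGIv7b assembly, 224580 to 227301, plus strand) had 7.40, 6.35 and 7.43 FPKM in ONC eyes at 3 d, against 19.9, 17.2 and 18.9 FPKM in contralateral eyes. The 3 ONC values were close together and far below the lowest contralateral value. The mean was 7.06 ± 0.615 FPKM in ONC eyes and 18.7 ± 1.38 FPKM in contralateral eyes (SD, n = 3 each), a log2 fold change of -1.34 (SE 0.13, adjusted p = 0.0182, limma). POU4F3 entry 2 (scaffold 000125180, 1403620 to 1405515, minus strand) had 11.7, 12.4 and 9.30 FPKM in ONC eyes, against 15.3, 13.1 and 12.0 FPKM in contralateral eyes. Its groups overlapped, and its difference of -0.27 (SE 0.16) did not pass the test (adjusted p = 0.878, limma).

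RBPMS2 entry 1 (scaffold 000012518, 569310 to 590812, plus strand) had 45.0, 34.0 and 39.9 FPKM in ONC eyes at 3 d, against 111, 116 and 93.2 FPKM in contralateral eyes. Every ONC value was far below every contralateral value, and the log2 fold change was -1.42 (SE 0.15, adjusted p = 0.0296, limma). RBPMS2 entry 2 (scaffold 000007197, 101858 to 126749, plus strand) differed by a similar amount, -1.39 (SE 0.20), with an adjusted p of 0.0795 (limma). Neither SNCG entry passed the test: SNCG entry 1 differed by -1.62 (SE 0.27, adjusted p = 0.121) and SNCG entry 2, nearer the threshold, by -1.58 (SE 0.21, adjusted p = 0.0549), both by limma.

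The calls at 3 d were lost in most fits with 1 library fewer, while the differences kept their size. The call of POU4F3 entry 1 was lost when any of the 3 ONC libraries or contralateral replicate 1 or 2 was left out, with adjusted p of 0.0607 to 0.188 (limma) and log2 fold changes of -1.40 to -1.27, and so was that of RBPMS2 entry 1, with adjusted p of 0.0756 to 0.233 and log2 fold changes of -1.52 to -1.32. Within the libraries that carry the letter B (2 ONC, 1 contralateral), POU4F3 entry 1 differed by -1.29 and RBPMS2 entry 1 by -1.13, and within those without it (1 ONC, 2 contralateral) by -1.47 and -1.73. With the letter as a covariate 7 of the 20 entries were called, and 9 when all 21 eye libraries shared 1 fit, against 2. Over all entries these fits called 126 and 488, against 42, and the fit with replicate number as a block called 149. With replicate number as a block 6 were called, the 2 above, RBPMS2 entry 2, both SNCG entries and CALB2 entry 2. The study calls the contralateral eyes paired controls, without saying whether pools of the same number share frogs. The same-numbered libraries of the 2 eyes deviated together in 2 of the 3 pairs only (correlations -0.21, 0.57 and 0.69). In these 2 pairs both libraries carry the letter B or both lack it, and in the other pair only the ONC library carries it. A shared number and a shared letter thus cannot be told apart in these correlations. The replicate block likewise matches the letter in these 2 pairs only.

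Some values of the less abundant transcription factors at 3 d differed with the letter. ISL1 entry 1 had 2.68, 6.41 and 3.34 FPKM in ONC eyes, against 7.36, 14.0 and 2.51 FPKM in contralateral eyes. Contralateral replicate 3, which carries the letter, was thus below all 3 ONC libraries. POU4F2 had 1.02, 0.536 and 0.0946 FPKM in ONC eyes against 2.01, 4.70 and 0.498 FPKM in contralateral eyes. Its contralateral replicate 3 was also the lowest of that eye, but its ONC values did not go with the letter. Within the libraries with the letter, 16 of the 20 entries were lower in ONC eyes (median difference -0.57), and the 4 that were not were POU4F1 entry 2, ISL1 entries 1 and 2 and EBF1 entry 2. Within those without it all 20 were lower (median difference -1.34). Neither count was made over all entries.

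**Figure D1:**
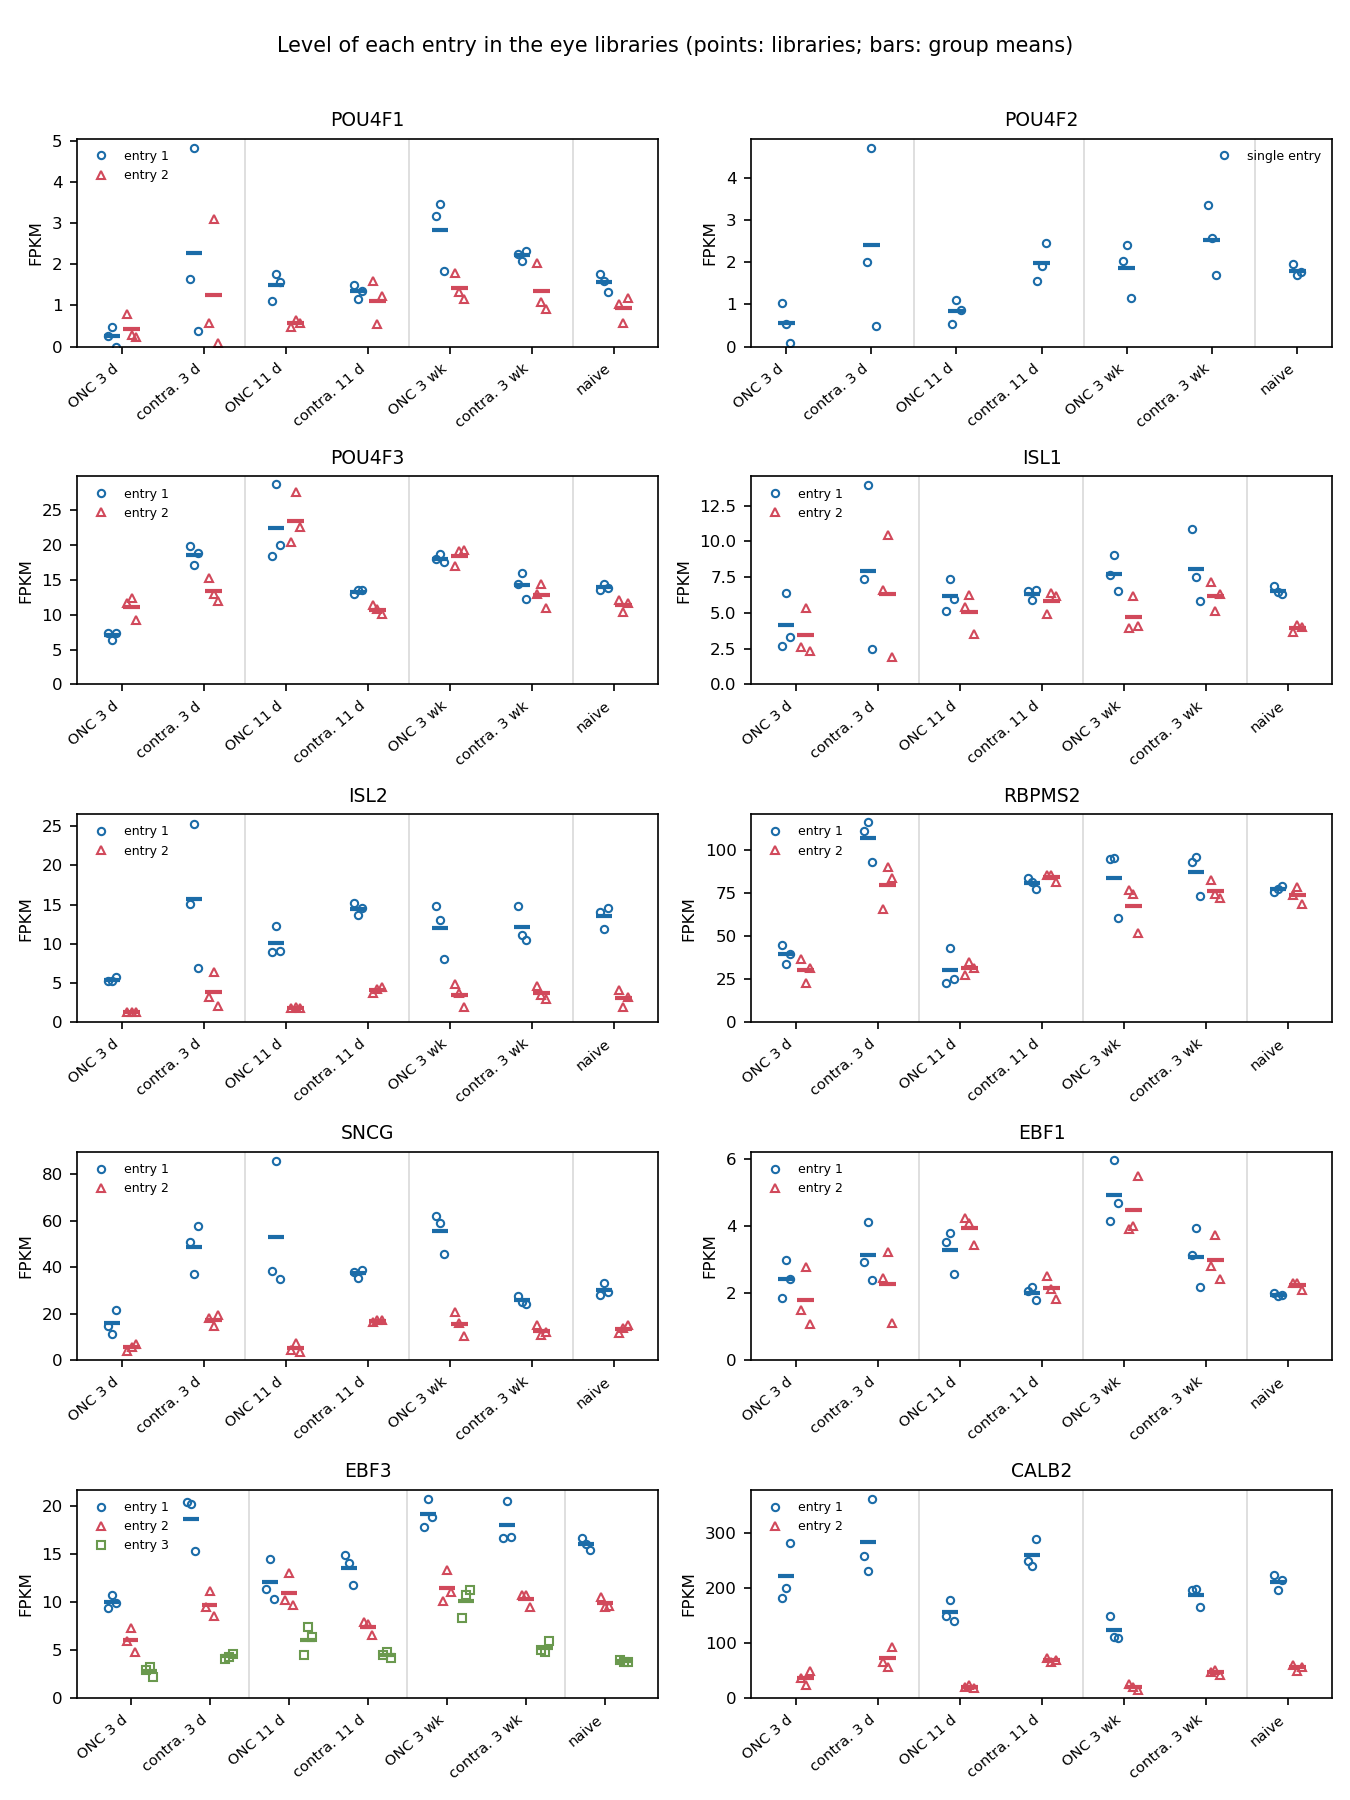
FPKM of each entry (vertical axis, from 0) in the 21 eye libraries, by condition (horizontal axis), 1 panel per gene. Open points are libraries, horizontal bars are means of 3, and colours and shapes mark the entries of a gene. RBPMS2 lies between 22.6 and 45.0 FPKM in all ONC libraries at 3 d and 11 d and between 51.9 and 116 FPKM in the other eye libraries.

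At 11 d, 8 of the 20 entries passed the test, 6 of them lower and 2 higher in ONC eyes, and 2.86% of all 21567 entries tested were called. Both entries of RBPMS2, both of CALB2, ISL2 entry 2 and SNCG entry 2 were lower, and POU4F3 entry 2 and EBF1 entry 2 were higher. The median log2 fold change was -0.20 over the 20 entries and -0.05 over all entries tested. Of the 20 entries, 8 lay wholly below and 5 wholly above the contralateral values, with 26% of all entries not overlapping.

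RBPMS2 entry 2 had 27.5, 35.0 and 31.8 FPKM in ONC eyes at 11 d, against 85.6, 85.7 and 81.6 FPKM in contralateral eyes. The groups were far apart, with a log2 fold change of -1.42 (SE 0.11, adjusted p = 0.000352, limma). RBPMS2 entry 1 had 22.6, 42.9 and 25.4 FPKM in ONC eyes, against 83.6, 81.7 and 77.3 FPKM in contralateral eyes, a log2 fold change of -1.46 (SE 0.21, adjusted p = 0.00865, limma). The high ONC value was that of replicate 2, the 1 library at 11 d without the letter B, and without it the difference of RBPMS2 entry 1 was -1.73 (adjusted p = 0.000103, limma).

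CALB2 entry 2 (scaffold 000015416, 903348 to 926299, plus strand) had 20.4, 23.0 and 18.2 FPKM in ONC eyes at 11 d, against 73.2, 65.9 and 69.5 FPKM in contralateral eyes. The groups were far apart, and the log2 fold change of -1.74 (SE 0.11, adjusted p = 0.000108, limma) was the one with the smallest p of the 20. CALB2 entry 1 (scaffold 000046631, 4419895 to 4452476, plus strand) was several times more abundant, with 149, 179 and 139 FPKM in ONC eyes and 250, 241 and 289 FPKM in contralateral eyes. Its groups did not overlap either, but its difference was smaller, -0.74 (SE 0.14, adjusted p = 0.0307, limma), and the call held in 1 of the 6 fits that left out a library.

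SNCG entry 2 (scaffold 000134539, 437443 to 453706, plus strand) had 4.47, 7.14 and 3.54 FPKM in ONC eyes at 11 d, against 16.4, 17.1 and 17.2 FPKM in contralateral eyes. It was lower in all 3 ONC libraries, by -1.70 on the log2 scale (SE 0.21, adjusted p = 0.0037, limma). SNCG entry 1 (scaffold 000059269, 1237660 to 1253838, plus strand) had 38.3, 85.5 and 34.8 FPKM in ONC eyes and 37.9, 35.4 and 38.8 FPKM in contralateral eyes. Replicate 2 of the ONC eyes was the only high one, and the difference of 0.37 (SE 0.29, adjusted p = 0.52, limma) did not pass. ISL2 entry 2 (scaffold 000012518, 4896998 to 4914081, minus strand) had 1.86, 1.90 and 1.83 FPKM in ONC eyes, against 3.76, 4.24 and 4.49 FPKM in contralateral eyes, a log2 fold change of -0.98 (SE 0.13, adjusted p = 0.00463, limma).

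The higher entries at 11 d were those of 2 transcription factors. POU4F3 entry 2 had 20.4, 27.6 and 22.6 FPKM in ONC eyes, against 11.4, 10.8 and 10.1 FPKM in contralateral eyes. The lowest ONC value was well above the highest contralateral value, and the log2 fold change was 1.09 (SE 0.13, adjusted p = 0.00312, limma). POU4F3 entry 1 had 18.4, 28.8 and 20.1 FPKM in ONC eyes and 13.0, 13.5 and 13.5 FPKM in contralateral eyes, and its difference of 0.70 (SE 0.16) had an adjusted p of 0.0594 (limma). EBF1 entry 2 (scaffold 000054336, 658109 to 740291, plus strand) had 4.26, 4.10 and 3.44 FPKM in ONC eyes, against 2.52, 2.12 and 1.83 FPKM in contralateral eyes. The groups did not overlap (log2 fold change 0.74, SE 0.15, adjusted p = 0.0384, limma), and the call was lost without any one of the 6 libraries, with adjusted p of 0.0545 to 0.138.

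Among the other entries at 11 d, POU4F2 lay between 0.547 and 1.11 FPKM in ONC eyes and between 1.56 and 2.46 FPKM in contralateral eyes without passing the test (adjusted p = 0.0712, limma). The 2 entries of ISL1, with 3.52 to 7.35 FPKM in ONC eyes and 4.94 to 6.64 FPKM in contralateral eyes, differed by -0.05 (SE 0.14) and -0.22 (SE 0.20).

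By 3 wk, 3 of the 20 entries were called: SNCG entry 1 and EBF3 entry 3 were higher in ONC eyes and CALB2 entry 2 was lower, with 0.612% of all 21565 entries tested called. The median log2 fold change over the 20 entries was 0.09, against -0.01 over all entries tested. Of the 20, 6 lay wholly above and 2 wholly below the contralateral values, and 16.4% of all entries did not overlap.

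SNCG entry 1 had 62.1, 58.8 and 45.7 FPKM in ONC eyes at 3 wk, against 27.7, 25.2 and 24.2 FPKM in contralateral eyes. The ONC level was 2.13 times the contralateral one (log2 fold change 1.09, SE 0.12, adjusted p = 0.00647, limma), and it was called in all 6 fits that left out a library. EBF3 entry 3 (scaffold 000027038, 850173 to 923951, minus strand) had 8.31, 10.7 and 11.3 FPKM in ONC eyes, against 4.96, 4.80 and 5.96 FPKM in contralateral eyes. This was the least abundant EBF3 entry in the eye, and its difference was 0.88 (SE 0.14, adjusted p = 0.0295, limma). CALB2 entry 2 still was low, with 25.8, 20.3 and 13.7 FPKM in ONC eyes against 47.1, 51.4 and 41.0 FPKM in contralateral eyes (log2 fold change -1.24, SE 0.20, adjusted p = 0.0374, limma). The calls of EBF3 entry 3 and CALB2 entry 2 each held in 2 of the 6 fits that left out a library.

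RBPMS2 was no longer apart at 3 wk. RBPMS2 entry 1 had 94.9, 95.6 and 60.4 FPKM in ONC eyes and 92.9, 95.8 and 73.2 FPKM in contralateral eyes, and RBPMS2 entry 2 had 77.0, 74.4 and 51.9 FPKM in ONC eyes and 82.9, 74.3 and 72.0 FPKM in contralateral eyes. The groups overlapped for both, with differences of -0.08 (SE 0.18) and -0.19 (SE 0.15). ISL2 entry 1 and ISL2 entry 2 likewise differed by -0.04 (SE 0.22) and -0.11 (SE 0.28).

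**Figure D2:**
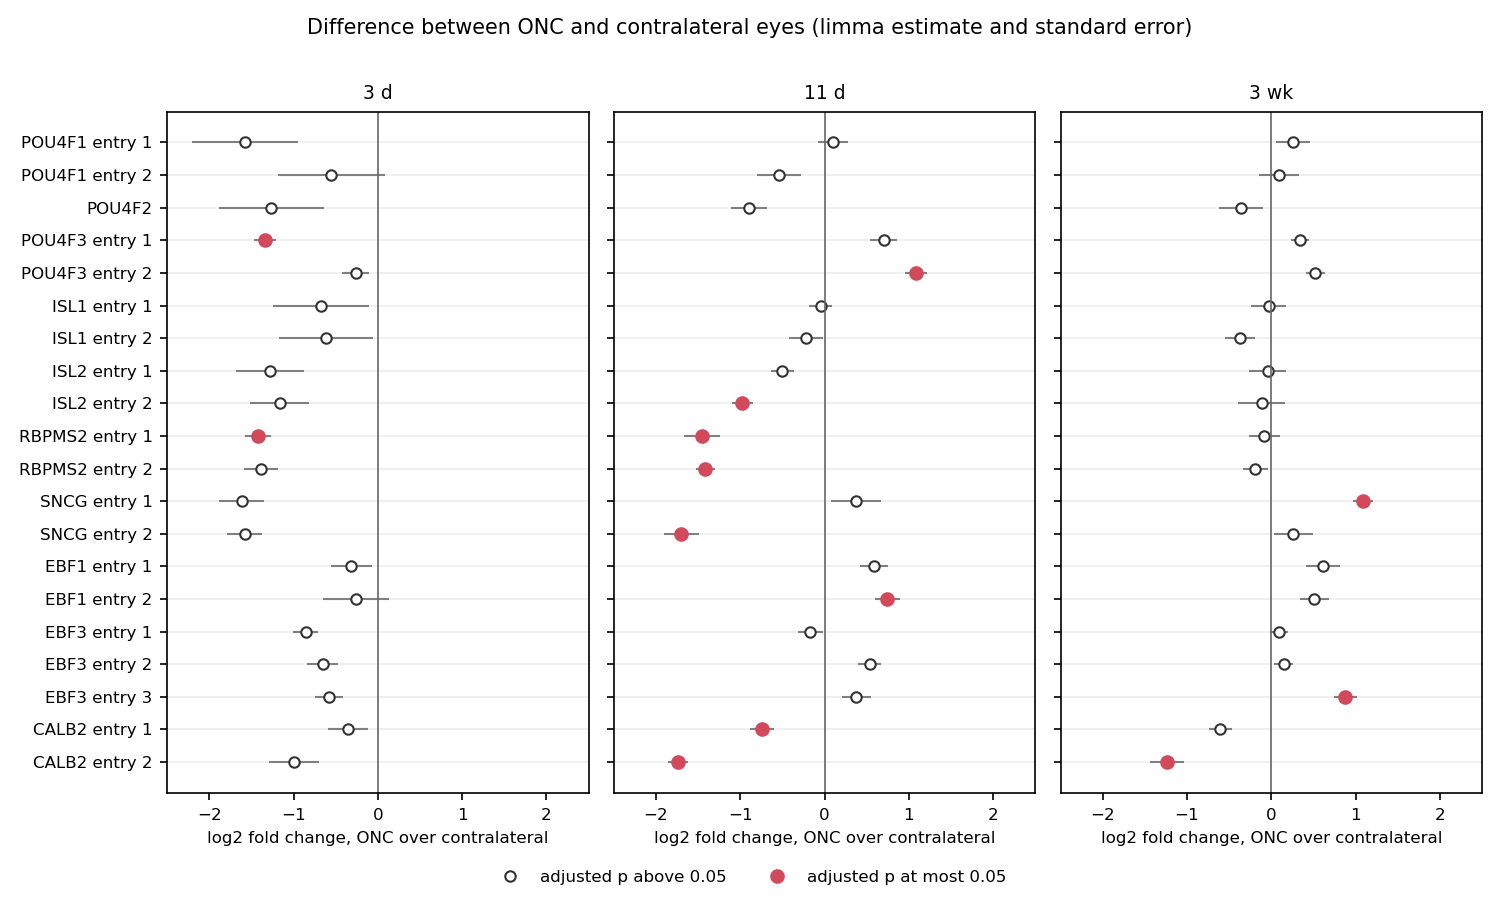
Log2 fold change of ONC over contralateral eyes (horizontal axis) for each of the 20 entries (rows) at 3 d, 11 d and 3 wk, as the limma estimate with its SE (bars), 3 libraries a group. Filled red points have an adjusted p of at most 0.05: 2 at 3 d, 8 at 11 d and 3 at 3 wk, and all 20 points lie left of 0 at 3 d.

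The ONC response of single entries was then compared between times, in 1 fit of the 12 libraries of 2 times with an interaction term. Between 11 d and 3 d it differed for both POU4F3 entries, by 2.04 for POU4F3 entry 1 (SE 0.21, adjusted p = 0.0013, limma) and by 1.35 for POU4F3 entry 2 (SE 0.21, adjusted p = 0.0193, limma), among 0.27% of all entries. In all 3 ONC libraries of each time, POU4F3 entry 1 was thus below the contralateral libraries at 3 d and above them at 11 d. Between 3 wk and 3 d the response differed for POU4F3 entry 1 (1.69, SE 0.16, adjusted p = 0.00179), SNCG entry 1 (2.71, SE 0.32, adjusted p = 0.0071) and EBF3 entry 3 (1.46, SE 0.21, adjusted p = 0.038), all by limma, among 0.0631% of all entries. SNCG entry 1 had 14.8, 11.0 and 21.7 FPKM in ONC eyes at 3 d, against 50.9, 37.2 and 57.7 FPKM in contralateral eyes, where at 3 wk it was the ONC eyes that were high. Between 3 wk and 11 d only RBPMS2 entry 2 passed (1.23, SE 0.20, adjusted p = 0.0496, limma), among 0.0687% of all entries, and this call held in 2 of the 8 other settings and 2 of the 12 fits without a library. RBPMS2 entry 1 differed by a similar amount with a wider error (1.38, SE 0.31, adjusted p = 0.22, limma).

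The entries of some genes moved apart. The ratio of SNCG entry 1 to SNCG entry 2 was 8.56 to 12.0 in ONC eyes at 11 d, against 2.07 to 2.31 in contralateral eyes, and 3.00 to 4.51 in ONC eyes at 3 wk, against 1.84 to 2.34 in contralateral eyes. At 3 d it was 1.93 to 3.67 in ONC eyes and 2.56 to 3.00 in contralateral eyes. The entries thus were in the same proportion in both eyes at 3 d within their spread, and entry 1 took a larger part in ONC eyes at the later times. The ratio of CALB2 entry 1 to CALB2 entry 2 was 4.93 to 8.45 in ONC eyes at 3 d, 7.30 to 7.77 at 11 d and 5.50 to 7.87 at 3 wk, and it stayed between 3.41 and 4.16 in the 9 contralateral libraries. The ratio of POU4F3 entry 1 to POU4F3 entry 2 was 0.512 to 0.799 in ONC eyes at 3 d, against 1.31 to 1.57 in contralateral eyes, and it was lower in ONC eyes at 11 d and 3 wk too. For RBPMS2, ISL1 and EBF1 the ratio of entry 1 to entry 2 overlapped between the eyes at all 3 times.

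Of the ratios that could be formed between entries of a gene, 2 of 10 did not overlap between ONC and contralateral eyes at 3 d, 7 of 11 at 11 d and 5 of 11 at 3 wk. Over all symbols with 2 or 3 entries, 12.3%, 19% and 14.7% of such ratios did not overlap at these times. For each of these the exact permutation test (two-sided, 3 against 3 libraries) gave p = 0.1, which is the smallest p that this design allows. The authors gave reads that aligned equally well to both homeologs at random to one of them, and the share of such reads per entry is unknown. With the FPKM of a gene's entries summed, SNCG differed by -0.02 at 11 d (adjusted p = 0.973) and by 0.87 at 3 wk (adjusted p = 0.0343), POU4F3 by -0.80 at 3 d (adjusted p = 0.0951) and by 0.90 at 11 d (adjusted p = 0.00922), and CALB2 by -0.90 at 11 d (adjusted p = 0.00624), all by limma over all symbols. ISL2 entry 2 and RBPMS2 entry 1 lie on the same scaffold, 4306186 bases apart.

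**Figure D3:**
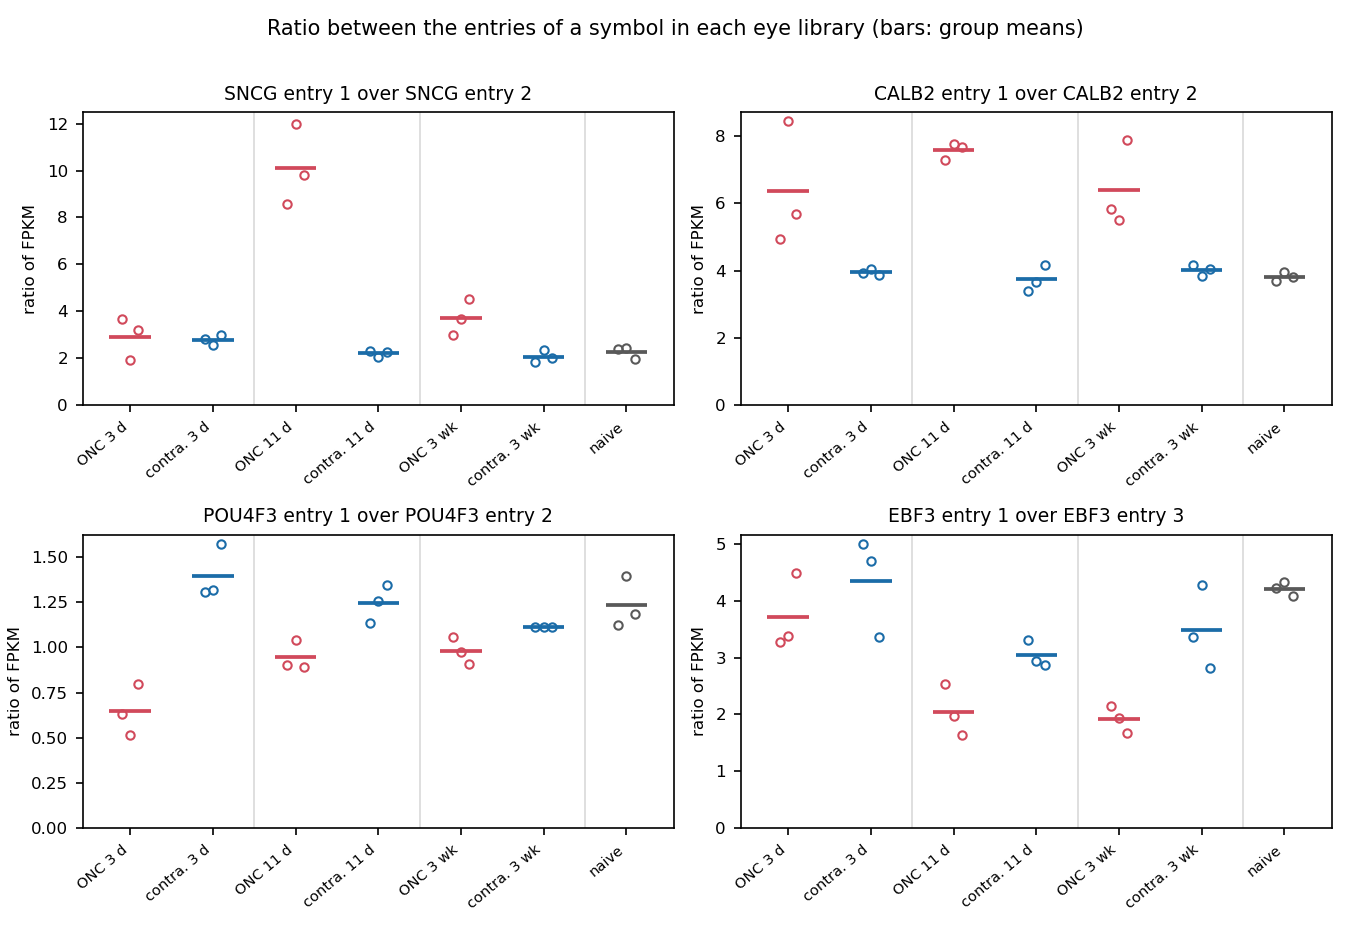
Ratio between the FPKM of 2 entries of a gene (vertical axis, from 0) in the 21 eye libraries by condition (horizontal axis). Open points are libraries and bars are means of 3 (red ONC, blue contralateral, grey naive). The SNCG ratio is 8.56 to 12.0 in the ONC libraries at 11 d and at most 4.51 in every other eye library.

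The naive eye is a second reference, shared by the 3 times, so the comparisons below share its 3 libraries. In ONC eyes against naive eyes, 10 of the 20 entries were called at 3 d, all lower (6.39% of all entries called), 11 at 11 d, with 5 higher and 6 lower (20% of all entries), and 8 at 3 wk, with 6 higher and 2 lower (8.98% of all entries). The 10 lower entries at 3 d included both of ISL2, RBPMS2 and SNCG. ISL2 entry 1 had 5.21, 5.31 and 5.78 FPKM in ONC eyes at 3 d, against 14.0, 11.9 and 14.6 FPKM in naive eyes (log2 fold change -1.23, SE 0.12, adjusted p = 0.00264, limma). EBF3 entry 3 was higher in ONC eyes than in naive eyes at 3 wk (1.29, SE 0.12, adjusted p = 0.00147, limma), and so were both EBF1 entries, by 1.14 (SE 0.14) and 0.85 (SE 0.14). The levels of EBF1 entry 1 were 4.17, 5.98 and 4.70 FPKM in ONC eyes at 3 wk and 1.99, 1.91 and 1.94 FPKM in naive eyes. With the letter as a covariate the count at 3 d was 6 instead of 10, and the share of all entries called in that fit is not given here. Markers of other tissues moved in the same comparison at 3 d: 13 of 23 skeletal muscle entries were lower in ONC eyes (median -0.82), 4 of 14 myelin entries were lower and 1 higher, and 6 of 17 macrophage and microglia entries were higher (median 0.57). At 11 d 3 of 22 muscle and 5 of 13 myelin entries were lower, and 4 of 17 macrophage and microglia entries were called, 2 in each direction. Their part in the values of the 10 genes was not tested.

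In contralateral eyes against naive eyes, 0 of the 20 entries were called at 3 d by limma (0.102% of all entries, and 4 of the 20 with an unadjusted p under 0.05), 2 at 11 d (9.18%) and 1 at 3 wk (8.26%). Of all 21598 entries tested at 3 d, 3161 had an unadjusted p under 0.05. At 3 d the 2 contralateral libraries without the letter B were above the 3 naive ones in mean for all 20 entries (median difference 0.44). The same was not counted over all entries. With all libraries of the 2 conditions the median log2 fold change was 0.21 over the 20 entries and -0.01 over all entries tested. With the letter as a covariate 3 were called at 3 d, all higher: ISL1 entry 2 (0.99), RBPMS2 entry 1 (0.55) and EBF1 entry 1 (0.71). The share of all entries called in that fit is not given here, so these 3 have no reference. ISL1 entry 2 was higher in contralateral eyes at 11 d (0.51, SE 0.12, adjusted p = 0.037) and at 3 wk (0.59, SE 0.13, adjusted p = 0.035), and EBF3 entry 2 was lower at 11 d (-0.40, SE 0.10, adjusted p = 0.0435), all by limma. ISL1 entry 2 had 4.94, 6.42 and 6.21 FPKM in contralateral eyes at 11 d and 7.19, 5.12 and 6.33 FPKM at 3 wk, against 3.70, 4.14 and 3.98 FPKM in naive eyes. These differences were small, and neither time had a call when all eye libraries shared 1 fit. All 3 contralateral libraries at 11 d carry the letter B and no naive library does, so the letter and the condition cannot be told apart there. At 3 wk the same-numbered libraries of the 2 groups deviated together weakly (correlations 0.17, 0.11 and 0.19), although their eyes are of different frogs. The fit with replicate number as a block also called 1 there.

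Over the 7 eye conditions, the mean level was lowest in ONC eyes at 3 d for 14 of the 20 entries, in ONC eyes at 11 d for RBPMS2 entry 1 and SNCG entry 2, and in ONC eyes at 3 wk for both CALB2 entries. The order of the conditions was not counted over all entries. The highest mean was that of ONC eyes at 11 d for both POU4F3 entries (22.4 ± 5.55 and 23.5 ± 3.72 FPKM, SD, n = 3 each), and of ONC eyes at 3 wk for both entries of POU4F1 and EBF1, all 3 of EBF3 and SNCG entry 1. Neighbours in this order mostly overlapped: of the 6 steps between the 7 conditions, none was free of overlap for POU4F1 entry 2, both ISL1 entries, EBF1 entry 2 and CALB2 entry 1, and the most was 4 of 6, for EBF3 entry 3. For that entry ONC eyes at 3 wk were above ONC eyes at 11 d, which overlapped with contralateral eyes at 3 wk.

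The hindbrain was the contrast for the levels in the eye. Between naive eyes and unoperated frog hindbrains, 11 of the 20 entries were higher in the eye, 6 were lower and 3 did not pass the test, where 77.3% of all entries were called. The letter R goes with the tissue in this comparison, so the letter and the tissue cannot be told apart. POU4F3, ISL2, RBPMS2 and CALB2 stood highest above the hindbrain: each of their 8 entries was higher in all 21 eye libraries than in any of the 30 hindbrain libraries. The share of all entries apart in this way was not counted. Between naive eyes and unoperated frog hindbrains alone, 79.9% of all entries did not overlap. POU4F3 entry 1 had 13.6, 14.5 and 13.9 FPKM in naive eyes and 0, 0.0538 and 0.0514 FPKM in unoperated frog hindbrains, and it was listed at 0 in 20 of the 30 hindbrain libraries. RBPMS2 entry 2 had 73.9, 78.5 and 69.0 FPKM in naive eyes, against 0.874, 0.596 and 0.823 FPKM in hindbrains (log2 fold change 5.88, SE 0.11, adjusted p = 2.17e-09, limma). CALB2 entry 1 had 224, 196 and 214 FPKM in naive eyes, against 7.35, 6.78 and 5.74 FPKM in hindbrains. ISL1 entries 1 and 2 were higher in naive eyes by 2.59 (SE 0.33) and 2.02 (SE 0.21), with some overlap over all eye and hindbrain libraries.

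SNCG, EBF1 and EBF3 entries 1 and 2 were higher in the hindbrain. SNCG entry 1 had 27.9, 33.3 and 29.5 FPKM in naive eyes, against 347, 343 and 358 FPKM in hindbrains, which made it the most abundant entry of the 20 in the hindbrain (log2 fold change -3.51, SE 0.08, adjusted p = 4.71e-09, limma). EBF3 entry 1 had 16.7, 16.1 and 15.5 FPKM in naive eyes, against 45.5, 43.7 and 45.4 FPKM in hindbrains. EBF3 entry 3 went the other way, with 3.95, 3.72 and 3.78 FPKM in naive eyes against 1.57, 1.88 and 1.82 FPKM in hindbrains (log2 fold change 0.94, SE 0.11, adjusted p = 8.71e-05, limma), and it was also the EBF3 entry that was higher in ONC eyes at 3 wk. POU4F1 and POU4F2 were low in both tissues: POU4F1 entry 1 had 1.77, 1.60 and 1.32 FPKM in naive eyes and 1.90, 1.12 and 0.322 FPKM in hindbrains, and these 3 entries differed by 0.48 (SE 0.35), -0.0017 (SE 0.25) and 0.69 (SE 0.30).

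**Figure D4:**
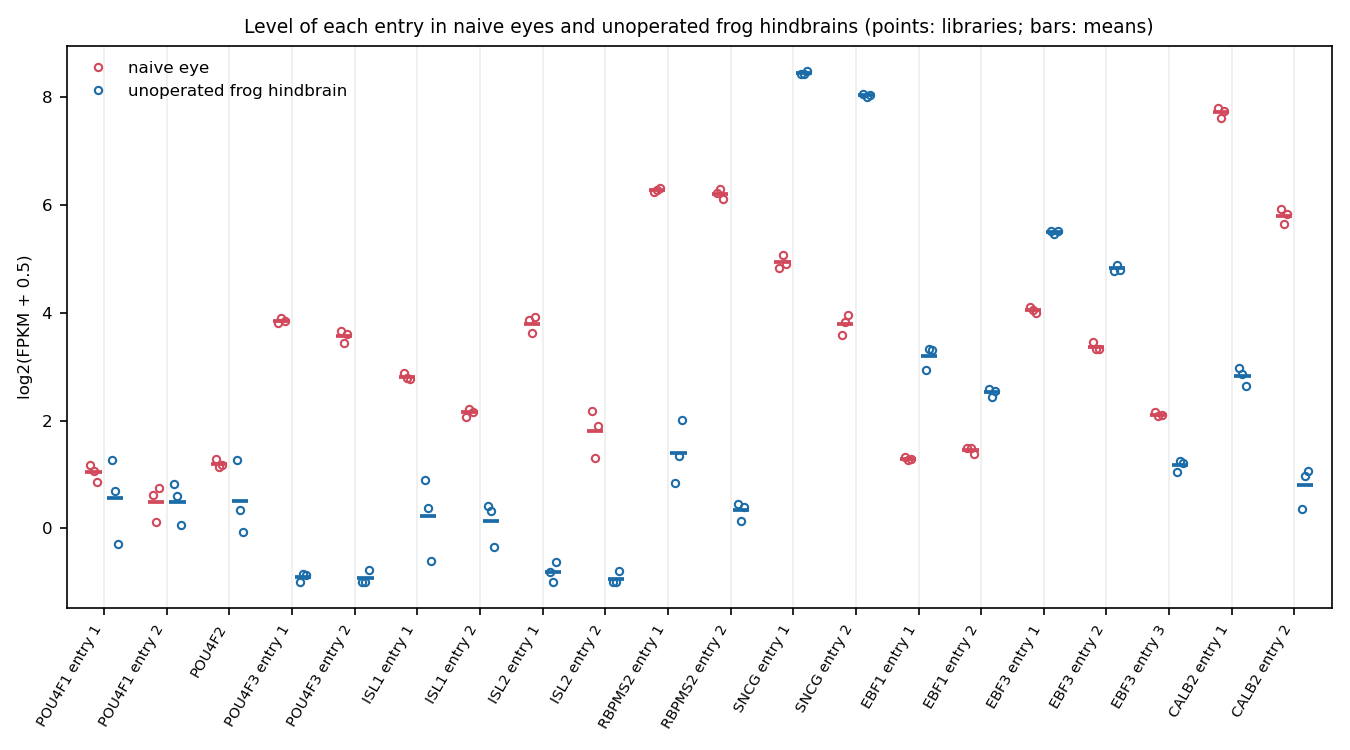
Level of each of the 20 entries (horizontal axis) as log2(FPKM + 0.5) (vertical axis) in naive eyes (red, left) and unoperated frog hindbrains (blue, right), 3 libraries each, with bars at the means. The SNCG entries have 256 to 358 FPKM in hindbrains, far above their 11.6 to 33.3 FPKM in naive eyes, and both RBPMS2 entries lie the other way.

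No entry passed the threshold after SCI in the hindbrain. All unoperated frog libraries carry the letter R and no other library does, so in frogs the letter and the condition cannot be told apart. In tadpoles, 0 of 17, 0 of 16 and 0 of 17 entries tested were called by limma at 3 d, 1 wk and 3 wk, where 1.85%, 4.91% and 0.101% of all entries were, and 3, 3 and 1 had an unadjusted p under 0.05. Over all entries 4052 of 19588, 5080 of 19859 and 3367 of 19883 had such a p. In frogs, 0 of 16 were called at each of these times, where 11%, 1.42% and 0.403% of all entries were, and 1, 2 and 1 had an unadjusted p under 0.05. Over all entries 5945 of 20147, 3715 of 20102 and 4156 of 20114 had such a p. The tadpole replicates were paired by the study. At 3 d, where the numbers of the 2 groups also went together, the fit with replicate number as a block called 1 entry, EBF3 entry 1, with 69.9, 70.1 and 75.8 FPKM after SCI against 60.9, 55.9 and 61.3 FPKM in controls (log2 fold change 0.28, adjusted p = 0.036, limma, against 0.0686 without the block). At 3 wk in tadpoles EBF3 entry 3 had 4.66, 4.36 and 4.37 FPKM after SCI, against 3.28, 3.17 and 3.36 FPKM in controls, without overlap (log2 fold change 0.40, SE 0.10, adjusted p = 0.138, limma). It was called when all tadpole groups shared 1 limma fit (adjusted p = 0.0384). The shared tadpole fit also called CALB2 entry 2 at 1 wk (0.65, adjusted p = 0.0249, limma). A fit shared by all frog hindbrain groups called EBF3 entry 2 at 3 d (0.24, adjusted p = 0.0397, limma). The number of all entries called in the block and shared fits is not given here, so these calls have no reference. In 1 library, tadpole SCI at 3 wk replicate 1, POU4F3 entries 1 and 2 were at 0.713 and 1.08 FPKM and ISL2 entries 1 and 2 at 1.28 and 0.945 FPKM, the highest of all hindbrain libraries for these 4. Its summed photoreceptor genes (15.8 FPKM) were the lowest of the 6 tadpole libraries at 3 wk. The source of these values was not tested.

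Other genes of the retina were read from lists for the cell types of the eye, with the genes above left out. The lists were chosen with earlier results of these data known, and not every listed gene had an entry under its symbol. Those found were 17 of 22 other ganglion cell, 21 of 22 amacrine, 6 of 8 horizontal and 13 of 17 bipolar cell genes. They were also 10 of 12 Muller glia, 17 of 21 photoreceptor and 8 of 12 macrophage and microglia genes. Listed genes without an entry, such as NEFL, GRM6, GFAP, CRX and CSF1R, are not covered by the counts of these lists. The list of other ganglion cell genes is not particular to the eye. It summed to 601 to 2307 FPKM in eye libraries and to 1939 to 4173 FPKM in hindbrain libraries. Of its 29 entries tested between naive eyes and unoperated frog hindbrains, 9 were higher and 16 lower in the eye, where 77.3% of all entries were called. Of the other ganglion cell genes, 0 of 29 entries tested were called at 3 d by limma (6 at an unadjusted p under 0.05, where 1443 of all 22078 entries were), 16 of 30 at 11 d (14 higher and 2 lower in ONC eyes) and 10 of 30 at 3 wk (all higher), with medians of -0.18, 0.55 and 0.09. Over all entries tested, 0.19%, 2.86% and 0.612% were called at these times, the reference for each list in this paragraph. GAP43, a growth cone protein, had 288, 355 and 334 FPKM in ONC eyes at 11 d, against 39.0, 37.1 and 43.6 FPKM in contralateral eyes (log2 fold change 3.01, SE 0.12, adjusted p = 2.01e-05, limma), and was still higher at 3 wk (1.93, SE 0.13). NRN1, a neurite growth protein, had 6.72, 8.68 and 6.49 FPKM in ONC eyes at 11 d, against 23.7, 24.7 and 23.6 FPKM (log2 fold change -1.66, SE 0.12). Pan-neuronal genes were called in 9 of 30 entries at 11 d and 7 of 30 at 3 wk, all higher, led by TUBB3 at 11 d (1.92, SE 0.12) and STMN2 at 3 wk (1.34, SE 0.09). Among cranial motor neuron genes 2 of 9 entries were higher at 11 d and 2 of 9 at 3 wk, with PRPH, a neuronal intermediate filament, at 47.0, 47.2 and 50.2 FPKM in ONC eyes at 11 d against 11.5, 9.99 and 11.7 FPKM.

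The lists of the other retinal cells are read against the 0.19%, 2.86% and 0.612% of all entries called between ONC and contralateral eyes. No photoreceptor, bipolar or horizontal cell entry was called by limma at 3 d, 11 d or 3 wk, of 35, 28 and 10 entries tested, with medians of -0.30 to -0.09, -0.24 to -0.16 and -0.15 to -0.12. At an unadjusted p under 0.05 there were 3, 13 and 7 photoreceptor, 0, 10 and 9 bipolar and 1, 2 and 1 horizontal entries at the 3 times. Over all entries tested there were 1443 of 22078, 4281 of 21567 and 2158 of 21565. Of 45 or 46 amacrine entries, 1 was lower at 3 d, 2 were lower at 11 d and 0 were called at 3 wk (16 at an unadjusted p under 0.05). GRP, a peptide transmitter, had 1.94, 1.94 and 1.62 FPKM in ONC eyes at 3 d, against 13.9, 17.7 and 11.1 FPKM in contralateral eyes (log2 fold change -2.64, SE 0.19), and 0.531, 0.371 and 0.573 FPKM at 11 d, against 14.6, 13.9 and 11.4 FPKM (-3.80, SE 0.15). Of 26 Muller glia entries 1 was called, APOE, higher at 3 d (2.26, SE 0.21). Of 20 pigment epithelium entries at 11 d and 21 at 3 wk, 2 and 1 were higher. They were led by 1 entry of TTR at 11 d (2.87, SE 0.25) and by another entry of TTR at 3 wk (1.21, SE 0.15). Macrophage and microglia genes had no call by limma, of 16 entries at each time, with 7, 0 and 1 at an unadjusted p under 0.05 and a median of 0.76 at 3 d, where their calls against naive eyes are given above.

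The lists of tissues outside the retina bear on what the pools held. Summed skeletal muscle genes were 2076 to 2661 FPKM in ONC eyes at 3 d, against 2952 to 3662 FPKM in contralateral eyes, and summed myelin genes were 59.8 to 84.5 FPKM against 91.3 to 102 FPKM. No entry of either list was called at 3 d by limma, with 12 of 23 and 4 of 14 at an unadjusted p under 0.05, where 1443 of all 22078 entries were. At 11 d 1 of 23 muscle entries was higher (ACTA1, 1.36, SE 0.18) and 2 of 13 myelin entries were lower (MBP, -1.68, SE 0.21). Of 52 lens entries at 11 d 1 was called, a CRYGB entry listed at 0 in all 3 ONC libraries. It had 54030, 43040 and 76340 FPKM in the contralateral libraries, and the cause of the 0 values was not tested. Summed lens genes overlapped, at 305396 to 522700 FPKM in ONC eyes and 317745 to 545563 FPKM in contralateral eyes at 11 d. Photoreceptor genes summed to 17689 to 20857 FPKM in ONC eyes at 11 d, against 22166 to 24120 FPKM in contralateral eyes. Naive eyes had 18613 to 20417 FPKM, which overlapped with the ONC values and lay wholly below the contralateral values. Among the listed genes that had an entry, none was at 0 in every eye library. The part of the lists in the values of the 10 genes was not tested.

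Genes with a level most like that of the called genes were sought over the 21 eye libraries, by Pearson's r of log2(FPKM + 0.5) with the most abundant entry of the gene, as a description. For ISL2, EBF1 and EBF3 the most abundant entry was not the one called between ONC and contralateral eyes. For RBPMS2 entry 1 they were KCNIP3, HS3ST5 and IRX4 (r = 0.973, 0.969 and 0.966), and for CALB2 entry 1 they were TSPAN7, NTS and AJAP1 (r = 0.928, 0.923 and 0.917). For SNCG entry 1 they included PODXL2 (r = 0.844). For POU4F3 entry 1 they included SNF8 and INA (r = 0.858 and 0.848), and for ISL2 entry 1 they were another entry of INA, CHST7 and PCGF2 (r = 0.875, 0.872 and 0.867). For EBF1 entry 1 they were EPHA5, REEP1 and KIF3C (r = 0.918, 0.913 and 0.906), and for EBF3 entry 1 they were SEMA6A, NELL2 and ROBO2 (r = 0.914, 0.914 and 0.913). KCNIP3 ranged from 8.99 to 50.2 FPKM over these libraries and IRX4 from 1.14 to 9.44 FPKM. The 21 libraries share their conditions, so these r are large wherever a gene follows the same conditions.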

How the data were processed

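Total RNA from pools of whole eyes or hindbrains was depleted of ribosomal RNA and made into stranded libraries. Per the labels and the study's methods, the authors aligned reads to the Xenopus laevis genome of Xenbase with Bowtie2 2.2.9 and TopHat2 2.1.1, used the Mayball gene models and wrote FPKM per entry and library with Cufflinks and CuffDiff2. The deposited values analysed here are thus FPKM, which keep no read count, and no count or depth per library was used. Equal alignments to 2 homeologs were split at random. Positions inside the row names are of the JGIv7b assembly.

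The 20 entries were taken by symbol. The members and lists were chosen with earlier results of these data known. Each comparison used limma 3.58.1 in R 4.3.3 with trend = TRUE on log2(FPKM + 0.5), fitted to the compared libraries alone and to entries averaging 0.45 FPKM or more in either condition, and Benjamini-Hochberg adjustment over all of them, in 19 comparisons. The limma fits were tested on simulated data. Named beside the 10 genes were, for each gene called between ONC and contralateral eyes, the 3 entries of highest r (mean of at least 1 FPKM), and the entry of smallest adjusted p per list, time and direction. Alternatives were median-of-ratios scaling, other pseudocounts (0.1 and 1) and minimums, all groups of a tissue in 1 fit, a replicate block, the library letter as a covariate, summed entries and leaving out each library. For SCI, tadpole and frog hindbrains had separate shared fits. A replicate number was read as a pairing where the deviations of every same-numbered pair correlated over 0.1. This held for contralateral against naive eyes at 3 wk and tadpole SCI at 3 d. Naive and contralateral eyes are of different frogs, so at 3 wk the number cannot stand for shared frogs. The study calls the tadpole SCI and control replicates paired at each time. It also calls the contralateral eyes paired controls, and says that both eyes of the crushed frogs were taken. It does not say whether pools of the same number hold eyes of the same frogs. No 2 libraries were identical. Some results of the likeness search are not reported here. No sequences are shown.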

Additional observations from a re-analysis of the deposited data

Results flagged for a closer look

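The ONC response, ONC over contralateral eyes on the log2 scale, differed between times for 6 pairs of entry and times by the limma interaction term. It was higher at 11 d than at 3 d by 2.04 for POU4F3 entry 1 and by 1.35 for POU4F3 entry 2. It was higher at 3 wk than at 3 d by 1.69 for POU4F3 entry 1, by 2.71 for SNCG entry 1 and by 1.46 for EBF3 entry 3, and at 3 wk than at 11 d by 1.23 for RBPMS2 entry 2. POU4F3 entry 1 and SNCG entry 1 kept their calls against 3 d in all 8 other settings and all 12 fits without a library, with adjusted p of at most 0.0125 for POU4F3 entry 1 and 0.0412 for SNCG entry 1 without a library. POU4F3 entry 2 kept its call in 6 of the 12, EBF3 entry 3 in 4 and RBPMS2 entry 2 in 2. At 3 d, 3 of the 6 libraries carry the letter B in their titles and at 3 wk none does. With the letter as a covariate all 6 were called, at 1.97 and 1.17 for POU4F3 entries 1 and 2 between 11 d and 3 d, at 1.72, 2.89 and 1.43 for POU4F3 entry 1, SNCG entry 1 and EBF3 entry 3 between 3 wk and 3 d, and at 1.31 for RBPMS2 entry 2 between 3 wk and 11 d.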

How the results depend on the processing

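Of the 13 calls of single entries between ONC and contralateral eyes, all 13 kept their sign in every setting, and 5 kept their call in every setting: POU4F3 entry 2, RBPMS2 entries 1 and 2, SNCG entry 2 and CALB2 entry 2, all at 11 d. The number of the 20 entries called, with the number reported above in brackets, changed by over 1.5 times as follows. With all groups of a tissue in 1 fit: ONC against contralateral eye at 3 d 9 (2), contralateral against naive at 11 d 0 (2) and 3 wk 0 (1), ONC against naive at 3 wk 5 (8), tadpole SCI at 1 wk 1 (0) and 3 wk 1 (0), frog SCI at 3 d 1 (0), response at 11 d minus 3 d 5 (2) and at 3 wk minus 3 d 6 (3). With no minimum: ONC against contralateral eye at 3 wk 0 (3), contralateral against naive at 11 d 0 (2) and 3 wk 0 (1). With the letter as a covariate: ONC against contralateral eye at 3 d 7 (2), contralateral against naive at 3 d 3 (0), ONC against naive at 3 d 6 (10). With at least 0.45 FPKM in every library, which leaves fewer entries: naive eye against hindbrain 11 (17). With the replicate block, where same-numbered eyes did not all deviate together (lowest correlation -0.21, -0.09 and -0.03 at 3 d, 11 d and 3 wk): ONC against contralateral eye at 3 d 6 (2). In tadpoles at 3 d the block gave 1 (0), and it gave no call at 1 wk and 3 wk. It changed no call of contralateral against naive at 3 wk. The response at 3 wk minus 11 d (1) became 0 with median-of-ratios scaling, no minimum, the stricter minimum, a pseudocount of 1 and the block, and 4 with the letter. Leaving out 1 library gave 0 to 4 for ONC against contralateral eye at 3 d, 6 to 10 at 11 d and 1 to 4 at 3 wk; 0 to 3, 0 to 1 and 0 to 1 for contralateral against naive; 4 to 15, 5 to 11 and 5 to 9 for ONC against naive; 17 to 19 for eye against hindbrain; and 1 to 3, 2 to 4 and 0 to 4 for the 3 differences between times. Over all entries, ONC against contralateral eye called 42 at 3 d, against 488 with all eye groups in 1 fit, 149 with the block, 126 with the letter, 27 with no minimum and 2 to 90 without 1 library; at 11 d it called 616, against 1251 with all eye groups, and at 3 wk 132, against 31 with no minimum. For the other comparisons and settings the number of all entries called is not given here. The counts of the 20 entries there thus have no such reference. The causes were not tested. No read count or depth per library was used, so no counting error is given for low entries such as POU4F1 and POU4F2, at 0 to 4.82 FPKM in the eye.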
